A study of Mus musculus with 1753 samples.

Results

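The Notch receptors, ligands and target genes described here are 10 of the 46517 genes in the count table. They are the 4 receptors Notch1, Notch2, Notch3 and Notch4, the ligands Jag1 and Jag2, and the target genes Hes1, Hey1, Hey2 and Heyl, chosen by name and each matched to 1 Ensembl identifier. The cells were 1753 fibroblasts and mural cells from skeletal muscle of male mice aged 10 to 20 weeks, sorted one by one for PDGFRα or PDGFRβ or for a reporter and against the endothelial protein CD31, and sequenced with Smart-seq2. Each cell carried one of 10 cluster labels and one of 5 strain labels. C57BL6 is an inbred strain without a reporter, and it gave 373 cells. Acta2GFP, Cspg4dsRED and PdgfrbGFP carry a fluorescent reporter driven by the gene in the name, and they gave 157, 181 and 630 cells. The label called the pool below mixes a Pdgfra reporter line with a Pdgfrb reporter line, and it gave 412 cells. No animal carried a treatment or a deletion according to the labels. The labels name no animal, so the strain label served as the replicate and n counts strain labels throughout. The sources do not tell if a mouse gave cells to both PdgfrbGFP and the pool, and p-values measure only the spread between these labels.

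Notch receptors sit on the cell surface and are switched on by ligands of the Jagged and Delta families on a neighbouring cell. Cleavage then frees the intracellular part of the receptor, which joins the DNA-binding protein RBPJ in the nucleus and turns on genes of the Hes and Hey families, which encode transcriptional repressors. In blood vessels, Notch3 is known as the receptor of smooth muscle cells and pericytes, Jag1 as a ligand between endothelial and mural cells, and Notch1 and Notch4 as receptors of the endothelium.

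Cluster 7 held the mural cells, that is the smooth muscle cells and pericytes around vessels. Clusters 2 and 9 are perimysial fibroblasts, from the sheath around fibre bundles, cluster 4 is paramysial, and clusters 1, 3, 5, 6 and 8 are endomysial, from around single fibres. Cluster 10, marked by Ngfr and Cspg4, has no class name. The authors had made these clusters from the same counts, so p-values between clusters describe how steady a difference was over strain labels and are not independent evidence for it. Depth ranged from 46097 to 1055869 counts per cell, and its median was 156959 counts in mural cells and 595321 in paramysial cells. A level below is the mean over cells of counts scaled to 500000 per cell, averaged over the strain labels with at least 3 cells. A share is the percent of cells with at least 100 such counts, since smaller values also turned up in cells that should lack a gene. The endothelial gene Pecam1, whose product CD31 was sorted against, passed this limit in at most 1.61% of the cells of any cluster. Cells with it had been removed, so this share is no measure of background for other genes. By summed markers, mural cells and fibroblasts stood apart. The 9 mural markers summed to between 9382 and 14330 counts per 500000 in the mural cells of each strain label and to between 81.1 and 501 in fibroblasts. Single markers were shared more widely. The highest share of any mural marker was 71.2% in cluster 9 and 42.8% in cluster 2. Of 5 fibroblast markers, the highest share in mural cells was 54.5%. The 3 markers listed for cluster 10 reached at most 59.7% there. Of 10 endothelial markers, 5 reached the limit in no mural cell, Cdh5, Cldn5 and Tie1 among them, and none did so in more than 2.14% of mural cells. The summed endothelial level of mural cells ranged from 11.2 to 239 over strain labels. In fibroblasts Tek, at 20.6% of cells, was the only endothelial marker above 5%. It reached 55.9% in cluster 1 and 42.5% in cluster 3.

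**Figure D1:**
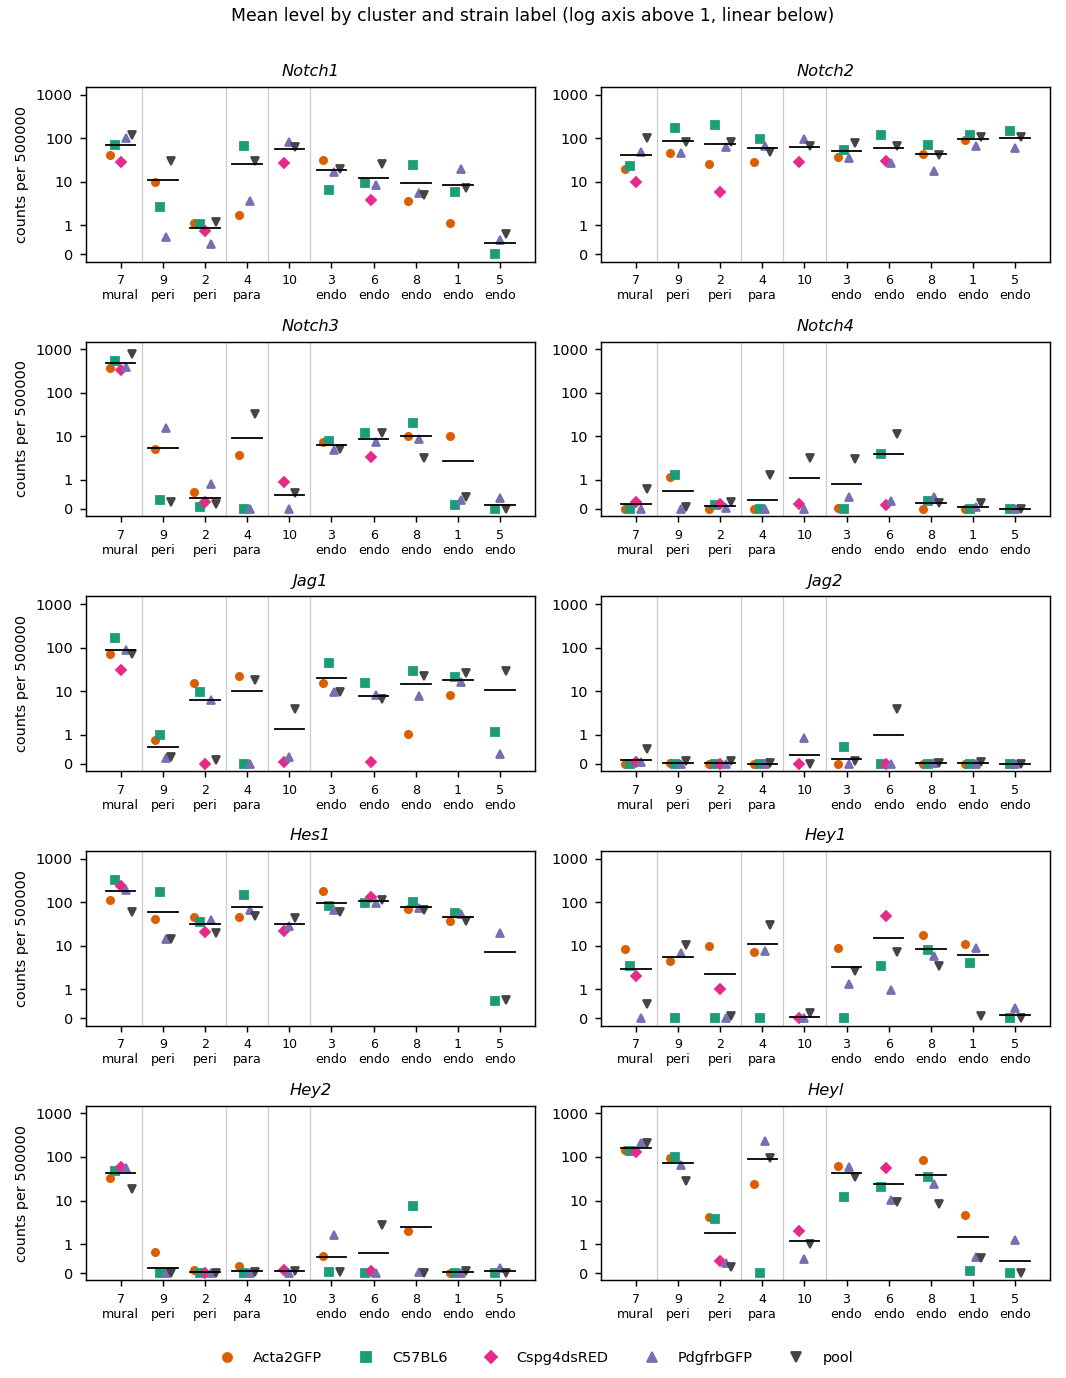
Mean level of each gene (counts per 500000 per cell, log axis above 1 and linear below) in the 10 clusters, with 1 point for each strain label with at least 3 cells and a line at their mean. Notch3 and Hey2 stood highest in cluster 7 in every strain label, Heyl was also found in clusters 9, 4, 3, 8 and 6, and Notch2 was spread over all clusters.

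Notch3, Hey2, Jag1, Heyl and Notch1 were higher in mural cells than in fibroblasts, and edgeR called none of the 8 members tested lower. Of the 8 members that passed the filter on low counts, 5 were called higher at an adjusted p under 0.05 in edgeR's quasi-likelihood test on summed counts, where 6.15% of all 13880 genes tested were called higher. The members had a median log2 fold change of 2.56, and the median of all genes tested was -0.46.

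Notch3 (chromosome 17, 32120820 to 32166852, minus strand, GRCm38) was the receptor of mural cells in these data. Its mural level was 371 in Acta2GFP, 534 in C57BL6, 329 in Cspg4dsRED, 393 in PdgfrbGFP and 791 in the pool. In the fibroblasts of the same strain labels it was 6.33, 6.18, 3.26, 5.12 and 7.80. The lowest mural value was therefore far above the highest fibroblast value. Within C57BL6 the mural level of Notch3 was 902.7 on plate 205s (5 cells) and 72.9 on plate 684s (4 cells). The fitted log2 fold change was 6.46 ± 0.26 (SE, n = 5, higher in 5 of 5), with an edgeR adjusted p of 2.6e-05. Notch3 passed 100 counts in 70.4% ± 16.1 of mural cells and 1.83% ± 1.07 of fibroblasts (SD, n = 5). In clusters 1, 2, 5 and 10 it passed in 0 cells, which for the 269 cells of cluster 2 allows a share of up to 1.12% (3 counts of the total). Of the exonic bases of Notch3, 6.03% lie under the antisense gene Gm17276, and reads there could not be assigned if strand was not used in counting.

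Hey2 (chromosome 10, 30832359 to 30842801, minus strand) had the largest log2 fold change of the 4 member target genes. Its mural level was 32.3 in Acta2GFP, 47.1 in C57BL6, 59.9 in Cspg4dsRED, 56.02 in PdgfrbGFP and 18.6 in the pool, against 0.0859 to 1.27 in fibroblasts. The groups did not overlap. The log2 fold change was 6.70 ± 0.69 (SE, n = 5, higher in 5 of 5; edgeR adjusted p = 0.0005). Hey2 was found at 100 counts or more in only 13.3% ± 9.29 of mural cells (SD, n = 5), and in 0 of the pool's 11 mural cells. In fibroblasts 4 of 1566 cells reached this value, a share of 0.255% with an exact 95% interval of 0.0696% to 0.653%, which covers counting error only.

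The promoters of Hey2 and Notch3 are shown because both genes separated the groups most, one as a target and the other as a receptor. They come from a set of promoters drawn from RefSeq (GRCm38.p6). The set used held 7 of the 10 members and did not include Hes1, Hey1 and Heyl. Each covers 250 bases before the start of the gene and 10 after it. The capitals mark the core motif bound by RBPJ, GTGGGAA, or its reverse complement TTCCCAC, searched on both strands.
Hey2, chr10:30842774-30843033, minus strand: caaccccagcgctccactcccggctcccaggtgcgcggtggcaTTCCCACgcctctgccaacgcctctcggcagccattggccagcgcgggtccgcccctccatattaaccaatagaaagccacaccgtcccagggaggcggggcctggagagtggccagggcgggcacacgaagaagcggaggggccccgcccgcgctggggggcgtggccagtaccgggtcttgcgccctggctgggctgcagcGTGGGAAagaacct
Notch3, chr17:32166881-32167140, minus strand: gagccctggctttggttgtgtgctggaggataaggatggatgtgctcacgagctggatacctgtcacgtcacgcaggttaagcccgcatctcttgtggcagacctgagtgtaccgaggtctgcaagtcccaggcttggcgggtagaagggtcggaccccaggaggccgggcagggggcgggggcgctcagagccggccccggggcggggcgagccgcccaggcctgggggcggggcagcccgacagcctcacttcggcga
The Hey2 window held 2 matches, beginning at positions -207 and -4 from the start. None of the other 6 members listed held a match in 300 bases (250 before and 50 after the start), and among all 32851 promoters of that length 6.38% held at least 1. A match is a run of letters and not a measured binding site.

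Jag1 (chromosome 2, 137081456 to 137116644, minus strand), the ligand, stood at 72.3 in Acta2GFP, 170 in C57BL6, 30.4 in Cspg4dsRED, 86.5 in PdgfrbGFP and 71.7 in the pool in mural cells. In fibroblasts it ranged from 0.104 in Cspg4dsRED to 19.4 in C57BL6, so that the groups did not overlap. The log2 fold change was 4.03 ± 0.72 (SE, n = 5, higher in 5 of 5; edgeR adjusted p = 0.0067). The share was 30.1% ± 17.8 of mural cells and 3.20% ± 2.34 of fibroblasts (SD, n = 5).

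Heyl (chromosome 4, 123233556 to 123249875, plus strand) was present in both groups. In mural cells its level was 141 in Acta2GFP, 138.02 in C57BL6, 127.9 in Cspg4dsRED, 208 in PdgfrbGFP and 204 in the pool, and in fibroblasts it was 59.2, 15.1, 26.8, 28.1 and 27.8. The lowest mural value was 127.9 and the highest fibroblast value 59.2. Within C57BL6 the mural level of Heyl was 230.7 on plate 205s (5 cells) and 22.2 on plate 684s (4 cells). The log2 fold change was 2.46 ± 0.36 (SE, n = 5, higher in 5 of 5; edgeR adjusted p = 0.0026). Heyl passed 100 counts in 40.2% ± 11.2 of mural cells and 9.24% ± 5.93 of fibroblasts (SD, n = 5).

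Notch1 (chromosome 2, 26457903 to 26516663, minus strand) was lower than Notch3 in mural cells but called as well. Its mural level was 41.6 in Acta2GFP, 70.3 in C57BL6, 28.3 in Cspg4dsRED, 102.01 in PdgfrbGFP and 116.3 in the pool, against 7.78 to 19.6 in fibroblasts. The log2 fold change was 2.65 ± 0.44 (SE, n = 5, higher in 5 of 5; edgeR adjusted p = 0.0048). Of its exonic bases, at least 7.5% lie under genes on the opposite strand.

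Hes1, Notch2 and Hey1 were tested and not called. Hes1, the most abundant target gene, had a mural level of 115.2 in Acta2GFP, 325 in C57BL6, 238 in Cspg4dsRED, 189 in PdgfrbGFP and 60.97 in the pool, and a fibroblast level of 58.2 to 102.4. The value of the pool lay inside the fibroblast range. Its log2 fold change was 1.31 ± 0.41 (SE, n = 5, higher in 5 of 5; edgeR adjusted p = 0.068), and the call was made by DESeq2 (adjusted p = 0.03, with 10.9% of all genes called higher), with plates as the unit (0.032) and without the strain block (0.032). Notch2, the receptor found in most cells, had a log2 fold change of -0.82 ± 0.46 (SE, n = 5, lower in 3 of 5; edgeR adjusted p = 0.3). Hey1 had -2.99 ± 1.81 (SE, n = 5, lower in 3 of 5; edgeR adjusted p = 0.34), and DESeq2 called it lower (adjusted p = 0.024), as it did 20.3% of all genes. Its mural level was 0 in PdgfrbGFP and between 0.491 and 8.34 in the others. Notch4 and Jag2 did not pass the filter. Mural cells held 7 counts of Notch4 and 3 of Jag2 in all, and fibroblasts held 1289 and 245.

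**Figure D2:**
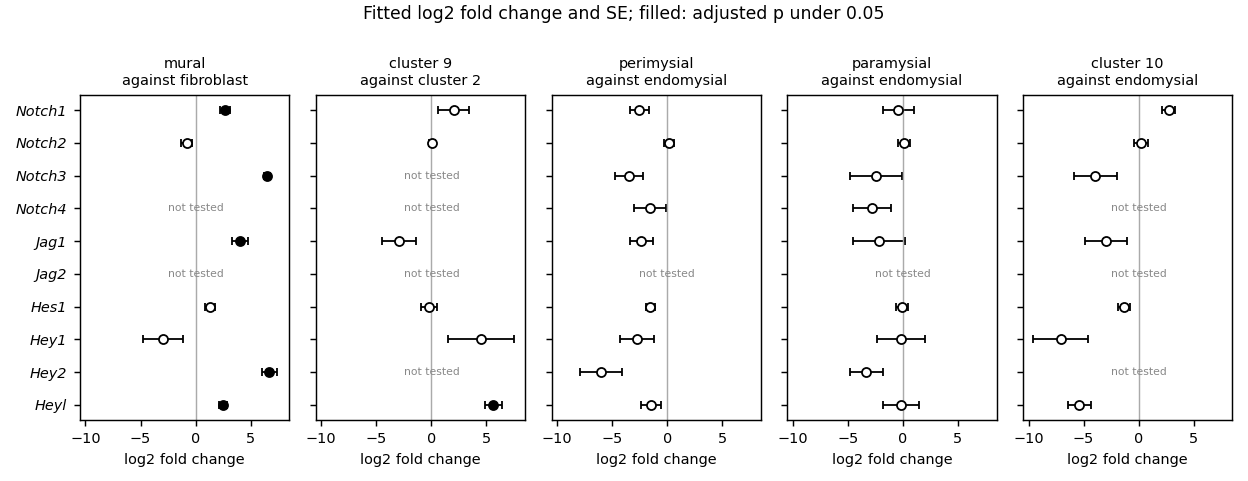
Fitted log2 fold change of each member (point) with its standard error (bar) in the 5 comparisons of edgeR on counts summed by strain label. Filled points have an adjusted p under 0.05, and they are the 5 members called in mural cells and Heyl in cluster 9 against cluster 2.

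Levels of different genes can be compared only per length. Divided by the kilobases of exon, the mural order was Hes1 at 91.1 ± 50.7, Notch3 at 59.8 ± 23.3, Heyl at 32.03 ± 7.58, Jag1 at 14.8 ± 8.81, Hey2 at 9.31 ± 3.74, Notch1 at 5.04 ± 2.65 and Notch2 at 3.75 ± 3.42 counts per 500000 and kilobase (SD, n = 5). In fibroblasts Hes1 led with 36.9 ± 8.71, followed by Heyl at 6.14 ± 3.22 and Notch2 at 5.86 ± 4.08. Notch3 came to 0.709 ± 0.208 there. Notch2 was thus the receptor with the highest level per length in fibroblasts and Notch3 in mural cells.

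At least 1 receptor passed 100 counts in 74.3% of mural cells and 27.8% of fibroblasts, and at least 1 target gene in 71.1% and 30.01%. Of the mural cells with Notch3 at that value, 43.8% also had Heyl, and of the 59 without it 38.98% did. For Hes1 the shares were 42.2% and 40.7%, and for Hey2 14.1% and 11.9%. They lay further apart for Notch1, at 21.1% and 11.9%, and for Nrarp, at 18.8% and 10.2%, over cells of all labels together. In Acta2GFP both went the other way, with Notch1 at 12.8% and 33.3% and Nrarp at 6.38% and 11.1%. The remaining labels had the higher share with Notch3 for both genes. The shares varied by strain label, and Hes1 was found in 46.8% of the mural cells with Notch3 and 11.1% of those without it in Acta2GFP, but in 45.8% and 61.5% in PdgfrbGFP. Pearson's r between log2 levels of Notch3 and Heyl over the 187 mural cells was 0.147, and between Notch3 and Nrarp it was 0.221, values from sparse counts that are given as a description. Rgs5, a pericyte marker, passed 100 counts in 38 mural cells. The paper reports that few pericytes were captured from skeletal muscle, and that Rgs5 is absent from only some smooth muscle populations. The split by Rgs5 is therefore not one of pericytes against smooth muscle cells. Notch3 was found in 68.4% of the 38 cells and 68.5% of the rest, Heyl in 39.5% and 42.95%, and Jag1 in 36.8% and 16.1%.

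**Figure D3:**
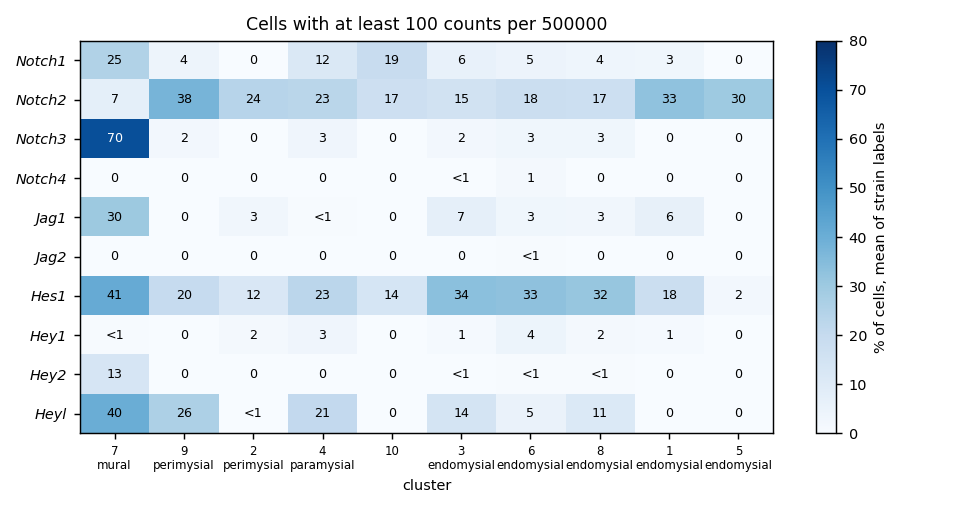
Percent of cells with at least 100 counts per 500000 of each gene (rows) in each cluster (columns), as the mean over strain labels with at least 3 cells, with the color scale from 0 to 80%. Notch3 stood at 70.4% in cluster 7, Heyl at 40.2% in cluster 7 and 26.1% in cluster 9, and Notch2 at 37.5% in cluster 9, where C57BL6 had 91.7% and the other strain labels 7.69% to 33.3%.

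The wider pathway was examined with 54 further genes. In mural cells against fibroblasts 46 of them were tested, and edgeR called 3 higher and 0 lower, where it called 6.15% of all genes higher. DESeq2 called 10 of them in either direction, where it called 31.2% of all genes. Nrarp, a target gene that dampens Notch signaling, had a log2 fold change of 10.06 ± 0.92 (SE, n = 5; edgeR adjusted p = 0.0003). Its mural level was 26.9 in Acta2GFP, 32.7 in C57BL6, 57.2 in Cspg4dsRED, 87.3 in PdgfrbGFP and 137.4 in the pool, and fibroblasts averaged 0.0932 ± 0.0666 (SD, n = 5). With 67 counts in all fibroblasts, the size of this fold depends on the prior count of the fit. The corepressor Ncor1 (1.09 ± 0.29) and the ubiquitin ligase family gene Dtx3 (1.13 ± 0.25) were the other genes called (SE, n = 5; edgeR adjusted p = 0.034 and 0.017). None of the 10 genes for receptor cleavage and none of the 9 for the nuclear complex was called, Rbpj included. By an unadjusted p under 0.05, 2 and 1 of them passed, and DESeq2 called 1 and 1.

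Soleus and gastrocnemius had been kept apart in the pool and for part of PdgfrbGFP. With 2 strain labels and 5 to 17 mural cells per value these levels were not tested. Hey2 stood at 68.1 in soleus and 22.7 in gastrocnemius mural cells of PdgfrbGFP, and at 31.6 and 7.74 in those of the pool. Jag1 was also higher in soleus in both, at 130.6 against 48.2 and at 79.5 against 65.3. Notch3 went the other way, with 305 in soleus against 481 in gastrocnemius in PdgfrbGFP and 718 against 851 in the pool. Heyl was 107.3 against 300.2 in PdgfrbGFP and 192 against 214 in the pool.

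Among the perimysial fibroblasts, Heyl was higher in cluster 9 than in cluster 2. This contrast had been singled out with earlier results of these data known. In cluster 9 the level of Heyl was 93.8 in Acta2GFP (23 cells), 101.8 in C57BL6 (12 cells), 65.4 in PdgfrbGFP (13 cells) and 27.4 in the pool (9 cells). In cluster 2 it was 4.29, 3.76, 0.363 and 0.196 in the same order. The groups did not overlap. The log2 fold change was 5.64 ± 0.79 (SE, n = 4, higher in 4 of 4; edgeR adjusted p = 0.02), and 0.363% of the 11843 genes tested were called higher. Of the 6 members tested, Heyl was the 1 called. Leaving out any 1 of the 4 strain labels ended the call, with adjusted p between 0.054 and 0.091 and log2 fold changes between 5.00 and 6.20. Cspg4dsRED held 2 cells of cluster 9, with 0 counts of Heyl between them, and was below the minimum of 3 cells. The sum of the 3 paramysial markers Postn, C1qtnf3 and Cthrc1 was also higher in cluster 9. It was 649 to 2662 in cluster 9, 114.4 to 505 in cluster 2 and 1699 to 3367 in cluster 4. Of the 3 markers, 2 reached the limit in more than 5% of cells in cluster 9, as in cluster 2, and 3 in cluster 4. The highest share of any of them was 81.4% in cluster 9 and 22.3% in cluster 2. The 9 mural markers summed to 227 to 744 in cluster 9 and to 111.5 to 601 in cluster 2. The part of these markers in the result was not tested.

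A minority of the cells carried the signal. Heyl passed 100 counts in 16 of the 59 cells of cluster 9 (27.1%, exact 95% interval 16.4% to 40.3%) and in 1 of the 269 cells of cluster 2 (0.372%, 0.00941% to 2.05%). That 1 cell, from C57BL6, held 82.6% of the scaled Heyl counts of cluster 2. In cluster 9 the highest cell held 19.1% and the top 3 cells 45.01%. Any count of Heyl at all was found in 83.3% of the cluster 2 cells of Acta2GFP, whose level was 4.29, and in 6.25% to 14.8% of those of the other labels. The part of such low counts in the result was not tested.

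**Figure D4:**
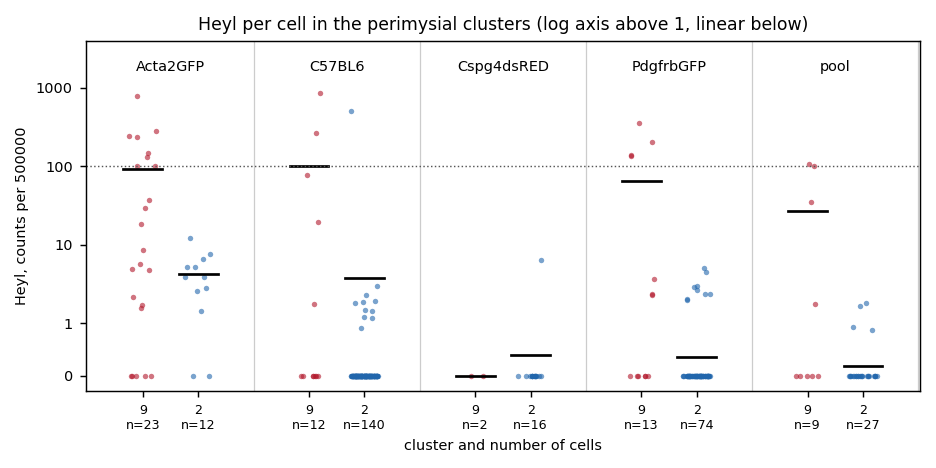
Heyl in single cells of clusters 9 and 2 by strain label (counts per 500000, log axis above 1 and linear below; 1 point per cell, black line at the mean, dotted line at 100). In the 4 strain labels with at least 3 cells in both clusters the mean of cluster 9 lies between 27.4 and 101.8 and that of cluster 2 between 0.196 and 4.29.

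The other members tested were not called. Notch1 was higher in cluster 9 in 4 of 4 strain labels, but from 0.607 in PdgfrbGFP to 30.2 in the pool, with a log2 fold change of 2.04 ± 1.40 (SE; edgeR adjusted p = 0.78). Hey1 had a log2 fold change of 4.53 ± 2.99 and Jag1 of -2.91 ± 1.56 (SE, n = 4; edgeR adjusted p = 0.77 and 0.67). Jag1 stood at 0.821, 1.01, 0.184 and 0.229 in cluster 9 and at 15.1, 9.603, 6.22 and 0.110 in cluster 2, in the order used for Heyl. Notch2 had 0.05 ± 0.29 (SE, n = 4; edgeR adjusted p = 0.99). Hes1 ranged from 14.3 to 171 in cluster 9 and from 19.3 to 44.8 in cluster 2, and its adjusted p was 0.99. Notch3, Notch4, Jag2 and Hey2 did not pass the filter. Of the 54 further pathway genes, 40 were tested and 0 called. At an unadjusted p under 0.05 there was 1, and DESeq2 called 0.

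Perimysial and endomysial fibroblasts, compared as classes, gave 0 calls among the 9 members tested in edgeR, where 5.57% of 14121 genes were called. At an unadjusted p under 0.05, 4 members passed, Notch1, Notch3, Hes1 and Hey2, and so did 15.8% of all genes. All 4 were lower in perimysial cells in 5 of 5 strain labels, and DESeq2 called the same 4 lower at an adjusted p under 0.05, as it did 8.46% of all genes. Hes1 was the nearest to a call. Its perimysial level was 43.1 in Acta2GFP, 45.95 in C57BL6, 21.6 in Cspg4dsRED, 34.8 in PdgfrbGFP and 18.1 in the pool, and its endomysial level was 142.6, 82.6, 152, 70.4 and 65.3. As whole classes the groups did not overlap, and the log2 fold change was -1.54 ± 0.41 (SE, n = 5; edgeR adjusted p = 0.086). By cluster they did. Mean Hes1 was 7.08 and 46.25 in endomysial clusters 5 and 1, and 77.3 to 108.6 in clusters 8, 3 and 6. In perimysial clusters 2 and 9 it was 31.8 and 60.5. Of the 51 endomysial cells of Cspg4dsRED, 46 came from cluster 6. Notch1 had a log2 fold change of -2.53 ± 0.85 (edgeR adjusted p = 0.18), Notch3 -3.44 ± 1.25 (0.22) and Hey2 -6.04 ± 1.90 (0.15). The perimysial counts behind the last were 8 in all. Of the further pathway genes, Dtx4 was the 1 called of 43 tested, with a log2 fold change of -4.82 ± 0.80 (SE, n = 5; edgeR adjusted p = 0.013). Its level was 1.26 ± 1.44 in perimysial and 26.2 ± 15.2 in endomysial cells (SD, n = 5).

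In paramysial fibroblasts of cluster 4, Heyl varied widely between strain labels. Its level was 23.96 in Acta2GFP (6 cells), 0 in C57BL6 (3 cells), 235 in PdgfrbGFP (4 cells) and 95.7 in the pool (46 cells), against 17.9 to 60.4 in the endomysial cells of these labels. The log2 fold change was -0.17 ± 1.66 (SE, n = 4, higher in 2 of 4; edgeR adjusted p = 0.99), and it turned positive without the strain block (1.64), with cells weighted alike (0.13), without Acta2GFP (1.07) and without C57BL6 (1.35). None of the 9 members tested was called by edgeR or by DESeq2, which called 0.0963% and 5.42% of 14533 genes. The median log2 fold change was -0.41 for these members and -0.86 for all genes tested. Hey2, with 4 counts in all paramysial cells, was the 1 member with an unadjusted p under 0.05, as were 6.75% of all genes. Hey1 ranged from 0 in C57BL6 to 29.9 in the pool. Paramysial cells were also the deepest. All but 1 of the pool's 46 paramysial cells came from 1 soleus plate, while its endomysial cells came from both muscles. The part of depth, muscle and plate in these levels was not tested.

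In cluster 10 the level of Notch1 lay above that of endomysial cells, but edgeR did not call it with all strain labels. Over the 62 cells of cluster 10 the median of Notch1 was 0, and the top 3 cells held 41.6% of its scaled counts. The level of Notch1 was 26.7 in Cspg4dsRED (37 cells), 82.1 in PdgfrbGFP (8 cells) and 63.96 in the pool (17 cells), against 3.45, 11.8 and 16.8 in endomysial cells. It was higher in 3 of 3 strain labels, with a log2 fold change of 2.74 ± 0.59 (SE; edgeR adjusted p = 0.19). Heyl lay at 2.01, 0.484 and 0.994 in cluster 10 and at 51.6, 30.03 and 21.5 in the endomysial class. Its log2 fold change was -5.41 ± 1.04 (SE, n = 3; edgeR adjusted p = 0.15). Low Heyl was not particular to cluster 10, whose mean was 1.16. Endomysial clusters 1 and 5 had means of 1.44 and 0.412, and cluster 3 stood highest of that class at 42.2. Hey1 held 4 counts in all cells of cluster 10. edgeR called 0 of the 7 members tested and 0.442% of all genes, and 4 members and 8.94% of all genes had an unadjusted p under 0.05. DESeq2 called Notch1 higher and Hey1 and Heyl lower, with 3.02% of all genes called higher and 5.73% lower. With Cspg4dsRED left out, edgeR called Notch1 (adjusted p = 0.042), in a fit on PdgfrbGFP and the pool alone. Of 4 Schwann cell markers only Cdh19 was frequent in cluster 10, at 38.7% of cells, and Sox10 reached the limit in 0. The summed level of 11 genes of the dissociation response was 7106 to 21260 in cluster 10 and 3234 to 6774 in endomysial cells. Its part in the Notch1 and Heyl values was not tested.

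A joint test over the 9 fibroblast clusters, on 35 sums, called 2 of the 9 members tested, where 14.7% of 16308 genes were called. They were Heyl (edgeR adjusted p = 0.00014) and Notch1 (0.0039), and the call of Notch1 was lost without PdgfrbGFP (0.089) and without the pool (0.071). At an unadjusted p under 0.05, 6 of the 9 members and 26.2% of all genes passed. Hes1 missed the adjusted threshold (0.052), as did Hey1 (0.088), Hey2 (0.12) and Notch3 (0.14). Hes1 was called with RLE size factors (0.045), without a filter (0.04), without the block (0.036), without C57BL6 (0.033) and without PdgfrbGFP (0.0069), and Hey1 without Acta2GFP (0.032). The level of Heyl is given here in the order of the cluster means. After mural cells it was 88.7 ± 105.8 in cluster 4, 72.1 ± 33.6 in cluster 9, 42.2 ± 23.7 in cluster 3, 38.2 ± 33.8 in cluster 8 and 24.2 ± 22.5 in cluster 6 (SD, n = 4), and neighbours among these did not differ beyond their spread. The step from cluster 6 to cluster 2, at 1.80 ± 2.04 (n = 5), was the same way in 4 of 4 shared labels and larger than its SD. Clusters 1, 10 and 5 followed at 1.44, 1.16 and 0.412.

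Notch1 was highest in cluster 7 at 71.7 ± 37.8 (SD, n = 5) and cluster 10 at 57.6 ± 28.2 (n = 3), which did not differ beyond their spread. Cluster 4 followed at 25.3 ± 29.97 (n = 4), and clusters 2 and 5 were lowest at 0.919 and 0.397. Hes1 ran from 186 ± 103.3 in mural cells over 108.6 ± 17.8 in cluster 6 to 31.3 ± 11.6 in cluster 10 and 7.08 ± 11.2 in cluster 5. Notch2 had no step between neighbours beyond their spread, from 102.3 ± 42.1 in cluster 5 to 40.4 ± 36.9 in cluster 7. It varied by strain label, and in cluster 2 it was 5.95 in Cspg4dsRED and 204 in C57BL6. Notch4 was found in 82 cells and Jag2 in 26. In cluster 6 Notch4 was at 11.6 in the pool, 4.03 in C57BL6 and at most 0.286 in the other strain labels. All 198 counts of Jag2 in cluster 6 came from the pool. Of the further pathway genes, the joint test covered 48 and called 4, where it called 14.7% of all genes. Dner, Lfng and Neurl1b were among those called. Lfng, which modifies the sugars on Notch receptors, was at 10.74 ± 13.95 in cluster 4, 7.53 ± 1.21 in cluster 6, 2.82 ± 1.82 in cluster 3 and 1.69 ± 1.24 in cluster 8 (SD, n = 4), and below 1 in clusters 1, 2, 5, 9 and 10.

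The genes most alike in pattern were those with the highest Pearson's r of log2 (CPM + 1) over 40 sums of a cluster and a strain label, among 10256 genes. The sums share cells' plates and depth within a label, and r is a description. For Notch3 these were Gucy1a1 (r = 0.886), Ppp1r14a (0.861) and Npy1r (0.856). For Hey2 they included Ephx3 (0.928) and Grip2 (0.923), and for Heyl they were Gucy1b1 (0.799), Slc7a2 (0.797) and Sparcl1 (0.778). Jag1 was most like Crtc3 (0.795) and Notch1 most like Entpd1 (0.811). Over the 35 sums of fibroblasts alone, Heyl was most like Nav3 (0.799), Lrrn2 (0.776) and Plvap (0.773), and the nearest gene to Hey1 was Heyl (0.621).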

How the data were processed

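The authors deposited raw read counts per gene and cell. Per the study's methods, reads were demultiplexed with bcl2fastq, mapped to GRCm38 with TopHat2 and counted with featureCounts, and cells were clustered with pagoda2. Use of strand in counting is not given in the sources used here. The 1 column without a label was not used, and 92 spike-ins, 1.31% of counts, were left out. Smart-seq2 carries no molecular identifiers, so intervals and limits cover counting error only.

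Identifiers were matched to GENCODE M21. Counts were summed per class and strain label with at least 3 cells and tested with edgeR 4.0.16 in R 4.3.3 (TMM, filterByExpr, quasi-likelihood test, strain label as a block, Benjamini-Hochberg adjusted p under 0.05). The block pairs classes of 1 strain label. DESeq2 1.42.0, other scaling, no filter, no block, plates as the unit, cells weighted alike and leaving out each label were alternatives. Scripts were tested on simulated counts. For shares, alternatives were 20 counts and any count after thinning each cell to 45000 counts. All 10 members were named, further pathway genes where called or counted, and for likeness the 3 genes with the highest r among genes with a mean of at least 10 CPM. The members, the pathway list and the markers were chosen with earlier results of these data known. Doublets were limited by the authors' sort gates and by their limit on genes per cell, and no caller was run here. A few genes that these rules would name are not reported here.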

Additional observations from a re-analysis of the deposited data

Results flagged for a closer look

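Over strain labels, 37 cluster means of at least 10 counts per 500000 were checked for a label far from the others by Dixon's gap, and 2 passed the 95% limit, where chance gives about 1 in 20. Jag1 in cluster 3 stood at 45.1 in C57BL6 (57 cells), and the next highest of the 4 labels was 15. Hey1 in cluster 6 stood at 49.6 in Cspg4dsRED (46 cells), and the next highest of the 4 labels was 7.38.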

How the results depend on the processing

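Members called were 5 in mural cells and 5 to 6 with 1 strain label left out. In cluster 9 against cluster 2 they were 1, and 0 without any 1 label. In perimysial cells they were 0, or 4 with DESeq2, 2 with plates as the unit and 1 with cells weighted alike, in cluster 10 they were 0, or 1 without a filter, 3 with DESeq2 and 0 to 1 with 1 label left out, and among fibroblast clusters they were 2, or 1 (without the pool) to 3.

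The percent of all genes called was 15.4 in mural cells, 31.2 with DESeq2, 6.62 without a filter, which tests more genes, and 8.91 (without PdgfrbGFP) to 16.2 with 1 label left out. In cluster 9 it was 0.92, 7.53 with DESeq2, 1.44 without a filter, 0.389 with plates and 0.292 (without the pool) to 0.407 (without Acta2GFP), with C57BL6 and PdgfrbGFP in between. In perimysial cells it was 5.57, 14.6 with DESeq2, 3.12 without a filter, 9.48 with plates and 2.86 (without C57BL6) to 9.06 (without Cspg4dsRED), and it was 3.5, 3.11 and 3.1 without Acta2GFP, PdgfrbGFP and the pool. In paramysial cells it was 0.0963, 5.42 with DESeq2, 0.0587 without a filter, 0.182 with plates and 0.075 to 0.392 (without Acta2GFP), with 0.201 without C57BL6, and 78.6% of calls were higher in edgeR but 5.08% in DESeq2. In cluster 10 it was 0.442, 8.75 with DESeq2, 0.97 without a filter, 0.918 with plates, 0.23 with cells weighted alike and 0 (without PdgfrbGFP) to 1.25 (without Cspg4dsRED), with 0.903 without the pool. Among fibroblast clusters it was 14.7, 7.98 without a filter and 7.16 (without PdgfrbGFP) to 13.2, with 7.4 and 9.71 without the pool and C57BL6. The cause of these shifts was not tested.

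Without the strain block, which pairs the classes, 6 members were called in mural cells, 1 in cluster 9, 0 in each of perimysial, paramysial and cluster 10 cells and 3 among clusters, and the percent of genes called was 15.4, 1.12, 4.68, 0.055, 0.345 and 17.9. Members that changed sign were not called under those settings. Without the block the log2 fold change was -0.020 for Notch2 and 0.62 for Hes1 in cluster 9, and 0.54 for Notch1, 0.050 for Notch3, 0.13 for Hes1, 1.34 for Hey1 and 1.64 for Heyl in paramysial cells. Notch2 in cluster 9 (0.05) was -0.0095 without a filter, -0.27 with plates, -0.050 with cells weighted alike and -0.19 to 0.16 with 1 label left out. Hes1 in cluster 9 (-0.18) was 0.14 with plates and -0.96 to 0.52 with 1 label left out. In paramysial cells Hes1 was 0.021 with RLE and DESeq2 and 0.019 with plates, Notch2 was -0.0010 without a filter and -0.026 with cells weighted alike, and Hey1 and Heyl were 0.18 and 0.13 with cells weighted alike. With 1 label left out, paramysial values ran from -0.62 to 0.25 for Hes1, -0.20 to 0.33 for Notch2, -1.43 to 0.45 for Notch1, -1.74 to 1.18 for Hey1 and -2.0 to 1.35 for Heyl, perimysial Notch2 from -0.10 to 0.66 and cluster 10 Notch2 from -0.38 to 0.67. Another scaling moved the median of all genes by over 0.1 (log2) in cluster 10 (0.13 with RLE and DESeq2) and with cells weighted alike in paramysial cells (-0.12). Of 100 shares by cluster, 48 moved by over 1 SD at 20 counts and 80 as any count after thinning.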
